A study of Mus musculus with 2 samples.

Results

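The expression of 10 genes of V(D)J recombination and early B cell development was followed across the cells of the dorsal meninges. They were chosen by symbol from 32285 genes in each matrix: Rag1, Rag2, Dntt, Vpreb1, Vpreb2, Vpreb3, Igll1, Ebf1, Pax5 and Myb. The Sham library held the pooled meninges of 5 male C57BL/6 mice, taken 1 week after a Sham procedure. Their age was 10 weeks in 1 label and 10 to 12 weeks in another. The TBI library held the pooled meninges of 5 mice of the same sex, strain and age, taken 1 week after a mild closed-skull traumatic brain injury. Both were made from live sorted cells with the 10x Genomics 3′ chemistry, in which a unique molecular identifier (UMI) marks each captured transcript. Each group was therefore 1 library without a replicate, no test between groups was possible, and every interval given is a 95% exact interval that covers counting error only. After limits on genes, mitochondrial and hemoglobin UMIs, 2043 Sham and 3773 TBI cells remained with a median of 2764 and 2663 UMIs, and 14 barcodes occurred among the cells of both libraries, 5 of the cells that carried them lying in B cell stages.

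V(D)J recombination assembles the variable regions of immunoglobulin genes from separate segments in developing lymphocytes. The RAG1 and RAG2 proteins together cut the DNA beside each segment, terminal deoxynucleotidyl transferase, encoded by Dntt, adds nucleotides at the junctions before the heavy chain is complete, and end-joining proteins seal the break. A finished heavy chain first reaches the surface with a surrogate light chain made of VpreB, from Vpreb1 or Vpreb2, and λ5, from Igll1, and this pre-B cell receptor drives a burst of division before Rag1 and Rag2 act again on the light chain genes. Ebf1 and Pax5 encode transcription factors that commit cells to the B lineage and hold them there, Myb encodes a transcription factor of progenitor cells, and Vpreb3 encodes a related immunoglobulin-domain protein of B-lineage cells. These steps are best known from bone marrow, and B cells at several stages of development have also been described in the dura.

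Several of these genes sit side by side in the mouse genome (GRCm38). Rag2 (chr2:101624718-101632529, plus strand) ends 5752 bases before Rag1 (chr2:101638282-101649501, minus strand), and Igll1 (chr16:16860671-16863985, minus strand) ends 4417 bases before Vpreb1 (chr16:16868403-16870843, minus strand). Vpreb2 (chr16:17980428-17981273, plus strand) lies further along the same chromosome. The remaining members are Dntt (chr19:41029275-41059525), Vpreb3 (chr10:75943057-75949657), Ebf1 (chr11:44617317-45008091), all on the plus strand, and Pax5 (chr4:44524757-44710487) and Myb (chr10:21124935-21160984) on the minus strand. The transcripts of Vpreb1 and Vpreb2 matched at 584 of 642 aligned positions (91.0%), so the division of UMIs between this pair is uncertain. An exon of B230118H07Rik overlaps Rag1 by 80 bases on the same strand, an exon of the same gene overlaps Rag2 by 208 bases on the opposite strand, and exons of other genes overlap Vpreb1, Pax5 and Myb on the opposite strand, so counts of these genes could be affected by how overlapping reads were assigned.

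Promoters are shown for the 4 members whose window held a searched motif, since E-proteins and EBF1 are known to act on this group of genes. Each window runs from 250 bases before to 50 bases after the RefSeq start on GRCm38.p6, is written 5′ to 3′ along the gene, and has in capitals every match on either strand to the E-box CAGGTG, which reads CACCTG along the opposite strand, and to the EBF-type palindrome CCCNNGGG. The windows are chr2:101649483-101649782 for Rag1 (minus strand), chr16:16869206-16869505 for Vpreb1 (minus), chr16:17980315-17980614 for Vpreb2 (plus) and chr16:16863936-16864235 for Igll1 (minus).
Rag1: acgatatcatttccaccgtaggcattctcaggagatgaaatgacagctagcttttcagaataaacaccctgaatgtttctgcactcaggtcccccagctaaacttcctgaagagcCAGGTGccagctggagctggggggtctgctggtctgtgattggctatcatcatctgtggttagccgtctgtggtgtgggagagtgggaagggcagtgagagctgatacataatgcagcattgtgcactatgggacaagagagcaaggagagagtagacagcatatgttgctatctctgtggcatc
Vpreb1: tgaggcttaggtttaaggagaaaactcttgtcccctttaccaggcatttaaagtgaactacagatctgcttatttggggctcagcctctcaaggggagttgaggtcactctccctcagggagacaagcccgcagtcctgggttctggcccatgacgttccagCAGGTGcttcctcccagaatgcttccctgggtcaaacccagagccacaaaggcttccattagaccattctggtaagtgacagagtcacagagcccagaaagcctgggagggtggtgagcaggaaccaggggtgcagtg
Vpreb2: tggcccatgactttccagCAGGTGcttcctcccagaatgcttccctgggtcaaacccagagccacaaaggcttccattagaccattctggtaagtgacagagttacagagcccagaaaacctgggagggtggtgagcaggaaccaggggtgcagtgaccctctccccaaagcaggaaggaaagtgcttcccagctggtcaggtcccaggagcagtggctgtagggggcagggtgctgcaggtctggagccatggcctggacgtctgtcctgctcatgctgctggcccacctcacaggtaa
Igll1: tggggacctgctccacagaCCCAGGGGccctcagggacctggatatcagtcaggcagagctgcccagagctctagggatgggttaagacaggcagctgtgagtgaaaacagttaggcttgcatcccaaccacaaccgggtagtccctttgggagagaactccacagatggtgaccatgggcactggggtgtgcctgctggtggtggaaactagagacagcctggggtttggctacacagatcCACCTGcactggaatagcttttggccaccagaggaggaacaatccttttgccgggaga
Of the 10 members, all with a window, 4 held the E-box, at 135 bases before the RefSeq start for Rag1, 88 for Vpreb1, 232 for Vpreb2 and 8 for Igll1. For Vpreb1 and Vpreb2 this start lies inside the gene span given above, so their distances are not counted from the ends of those spans. The EBF-type palindrome occurred in 1 member, Igll1, at 231 bases before the start. Among 32851 mouse promoter windows of the same length, 20.2% held the E-box, 13.7% the palindrome and 3.13% both. The Vpreb1 and Vpreb2 windows shared a stretch of 156 aligned bases with 153 identical, and the E-box of each lies within it at the same aligned place. A match is a description of the letters and not of binding.

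Cells were placed into stages with the members left out of the clustering. B-lineage cells numbered 456 in Sham and 405 in TBI. The precursor-like cluster carried 12 of the 17 precursor markers, which exclude the members and include Il7r, Sox4, Lef1 and Cd93. It held 87 Sham cells, or 19.1% of B-lineage cells (15.6 to 23.0), and 121 TBI cells, or 29.9% (25.5 to 34.6). These shares depended on the clustering: with finer clusters they were 15.6% and 21.0%. When each cell was staged by its own precursor markers, 291 Sham and 279 TBI cells were taken. They made up 61.9% and 60.0% of another base, the 470 and 465 cells with B cell markers. The turned order of the libraries therefore does not rest on the same cells as the shares above. The other stages were an immature or naive-like cluster (103 and 127 cells), a cluster led by Sox5 and Tlr9 that matched no marker list (145 and 70 cells) and a mature-like cluster (121 and 87 cells). The immature or naive-like name rests on 3 of 12 markers, the fewest the naming rule allowed, and the mature-like name on 6 of 13. In addition, 12 Sham and 22 TBI cycling cells carried B cell markers. Median depth was 3070 and 2575 UMIs in precursor-like cells, 3016 and 2490 in mature-like cells, and 6664 and 5666 in the cycling cells with B markers. Libraries that pool dorsal meninges can also hold neighbouring tissue, and 59 and 134 choroid plexus-like and 14 and 29 pineal-like cells were found. The study peeled the meninges from the skullcap, and whether any precursor-like cells came from the skullcap was not tested.

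The recombinase genes were found mainly in precursor-like cells in both libraries under the clustering used here. Rag1 (ENSMUSG00000061311), which encodes the catalytic subunit, gave 93 UMIs in 45 of 87 precursor-like cells in Sham, a level of 344 CPM (UMIs of the gene per 1e6 UMIs of the class; interval 278 to 422), and 98 UMIs in 58 of 121 cells in TBI, 267 CPM (217 to 325). Precursor-like cells held 86.1% of all Rag1 UMIs in Sham and 83.8% in TBI. Rag2 (ENSMUSG00000032864), its partner, was at 137 CPM (96.4 to 189; 37 UMIs in 28 cells) in Sham and 169 CPM (129 to 216; 62 UMIs in 39 cells) in TBI, with 88.1% and 64.6% of its UMIs in these cells. Much of the remaining TBI Rag2 lay in the cycling cells with B markers, 27 UMIs in 15 of 22 cells or 221 CPM (146 to 322), against 2 UMIs in the 12 Sham cells. With resolution 1.6 the shares in precursor-like cells were 80.6% and 64.1% for Rag1 and 61.9% and 45.8% for Rag2, and those of Rag2 were 59.5% and 44.8% with members among the variable genes. Without the hemoglobin limit Rag2 was at 62.8% and 46.9%. Rag1 in the cycling cells was at 72.9 CPM from 6 UMIs in Sham and 123 CPM from 15 UMIs in TBI.

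Neither gene had a UMI in mature-like cells, which with 121 Sham and 87 TBI cells allows a share of up to 2.48% and 3.45% of cells with a UMI. In the immature or naive-like cluster Rag1 gave 3 UMIs in Sham and 1 in TBI, and in the cluster led by Sox5 and Tlr9 it gave 5 and 0. Background from free RNA was low for both genes. Endothelial-like cells (196 and 309 cells, median 1797 and 1897 UMIs) had no UMI of either gene, and macrophage-like cells (352 and 774 cells, median 2286 and 3898 UMIs) had Rag1 in 0.284% and 0.129% of cells and no Rag2. The share of precursor-like cells with a Rag1 UMI was 51.7% in Sham and 47.9% in TBI, and after each cell was thinned to 1000 UMIs, which kept 76 of 87 and 110 of 121 cells, it was 28.9% (19.1 to 40.5) and 20.0% (13.0 to 28.7). For Rag2 the shares were 32.2% in each library and 9.21% and 18.2% after thinning (3.78 to 18.1 and 11.5 to 26.7), so for both genes the intervals of the libraries overlapped.

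**Figure D1:**
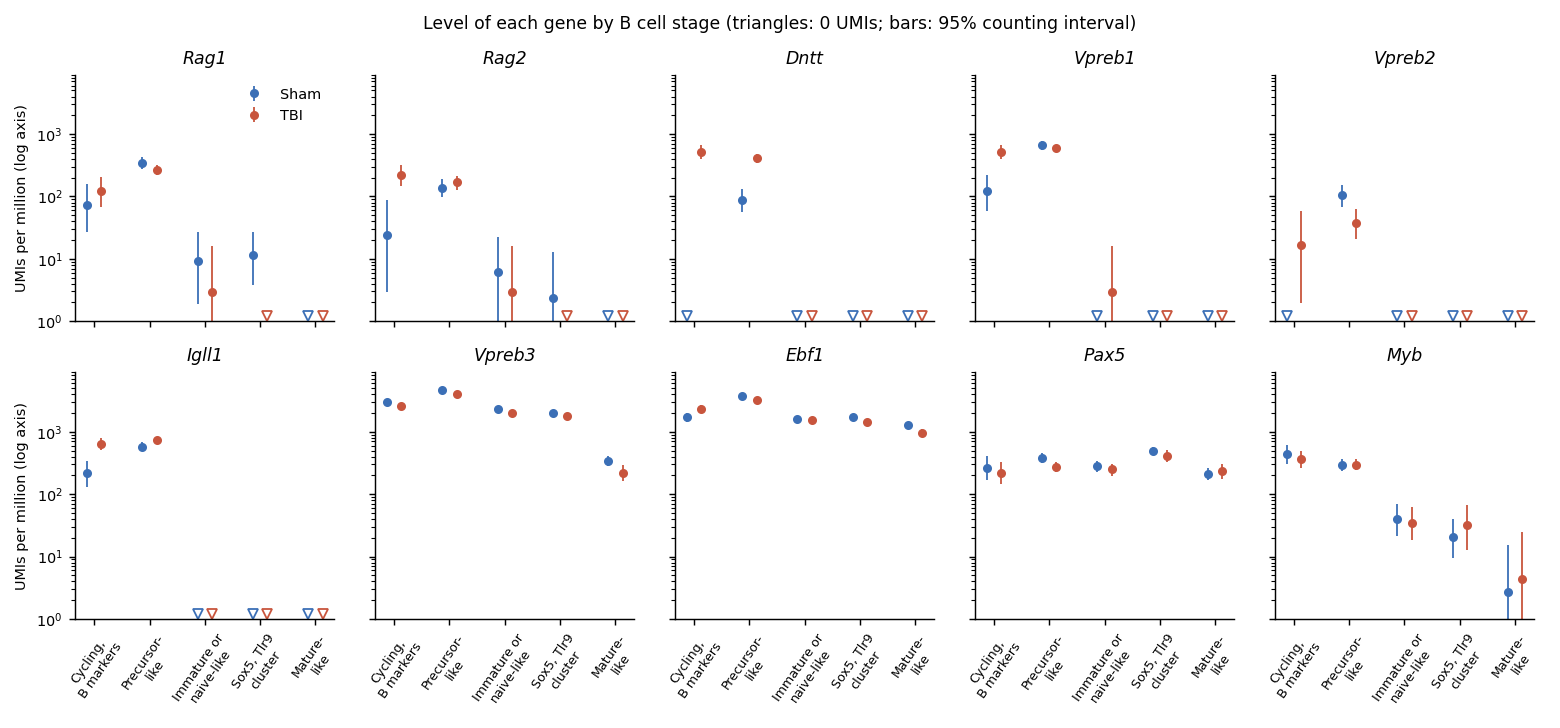
Level of each member (UMIs per 1e6, log axis) in the 5 groups of B cells for Sham and TBI, 1 panel a gene, with exact Poisson intervals that cover counting error and open triangles at the foot for 0 UMIs. Rag1 sat at 344 and 267 CPM in precursor-like cells and at 0 UMIs in mature-like cells, while Ebf1 and Pax5 were present in every group.

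The surrogate light chain genes were also found mainly in precursor-like cells under the clustering used here, but in few of them. In Sham these cells held 90.4% of Vpreb1 and 87.6% of Igll1 UMIs. With resolution 1.6 the shares were 2.54% and 5.62%, and with members among the variable genes 0.508% and 0%. Without the hemoglobin limit they were 4.46% and 6.63%. Vpreb2 went from 100% to 0% in each of these settings. Igll1 (ENSMUSG00000075370), encoding λ5, gave 156 UMIs in 5 of 87 precursor-like cells in Sham (577 CPM, 490 to 675) and 274 UMIs in 15 of 121 cells in TBI (746 CPM, 660 to 840). Vpreb1 (ENSMUSG00000059305) gave 178 UMIs in 6 cells in Sham (659 CPM, 565 to 763) and 217 UMIs in 16 cells in TBI (591 CPM, 515 to 675). Vpreb2 (ENSMUSG00000059280), the near copy of Vpreb1, gave 28 UMIs in 4 Sham cells (104 CPM, 68.8 to 150) and 14 UMIs in 5 TBI cells (38.1 CPM, 20.8 to 64.0). None of the 3 genes had a UMI in mature-like cells. The 5 cells richest in Igll1 held all of its precursor-like UMIs in Sham and 63.5% in TBI, and for Vpreb1 the corresponding shares were 99.4% and 77.4%, so these levels rest on a handful of cells.

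By cells, 6.90% of Sham and 13.2% of TBI precursor-like cells had a Vpreb1 UMI, and 5.75% and 12.4% an Igll1 UMI. After thinning, Igll1 was found in 6.58% (2.17 to 14.7) and 10.9% (5.77 to 18.3) of cells, intervals that overlap. Cycling cells with B markers also carried these genes: Igll1 was at 219 CPM in Sham (4 of 12 cells) and 639 CPM in TBI (6 of 22 cells), and Vpreb1 at 122 and 525 CPM. Outside the B lineage, Vpreb1 was found in 0.568% and 0.517% of macrophage-like cells. It was also found in 8 of 134 TBI choroid plexus-like cells with 1 UMI each, a share of 5.97% that was 0 after thinning. Igll1 had 1 UMI among all macrophage-like cells and none in endothelial-like cells.

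Dntt (ENSMUSG00000025014), encoding terminal transferase, was the member with the widest gap between libraries, on few cells. In precursor-like cells it gave 24 UMIs in 3 of 87 cells in Sham, 88.8 CPM (56.9 to 132), and 151 UMIs in 12 of 121 cells in TBI, 411 CPM (348 to 482). Cycling cells with B markers had none in Sham and 64 UMIs in 3 cells in TBI. A large part of the TBI UMIs came from a pair of cells: a cycling cell without B markers held 87 Dntt UMIs, with 8 UMIs of Cd34 and 6 of Flt3, both genes of early progenitors, and a cell within the precursor-like cluster held 81, with 7 of Cd34 and 6 of Flt3. Neither had a UMI of Cd79a or Ebf1. Together they held 168 of the 362 Dntt UMIs of the TBI cells (46.4%), and without them the library level was 14.0 CPM in place of 26.0, beside 4.83 in Sham.

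Plasmacytoid dendritic-like cells were the other place where Dntt was found. It was present in 10 of 22 Sham cells (45.5%, 83.3 CPM) and 25 of 45 TBI cells (55.6%, 209 CPM), and no B-lineage cluster past the precursor-like stage had a Dntt UMI in either library. These cells were deep, with a median of 7847 and 6161 UMIs, and after thinning the shares were 14.3% and 18.2%. Of 161 Dntt UMIs outside the B stages and cycling B cells of both libraries, 2 lay in cells marked as probable doublets.

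**Figure D2:**
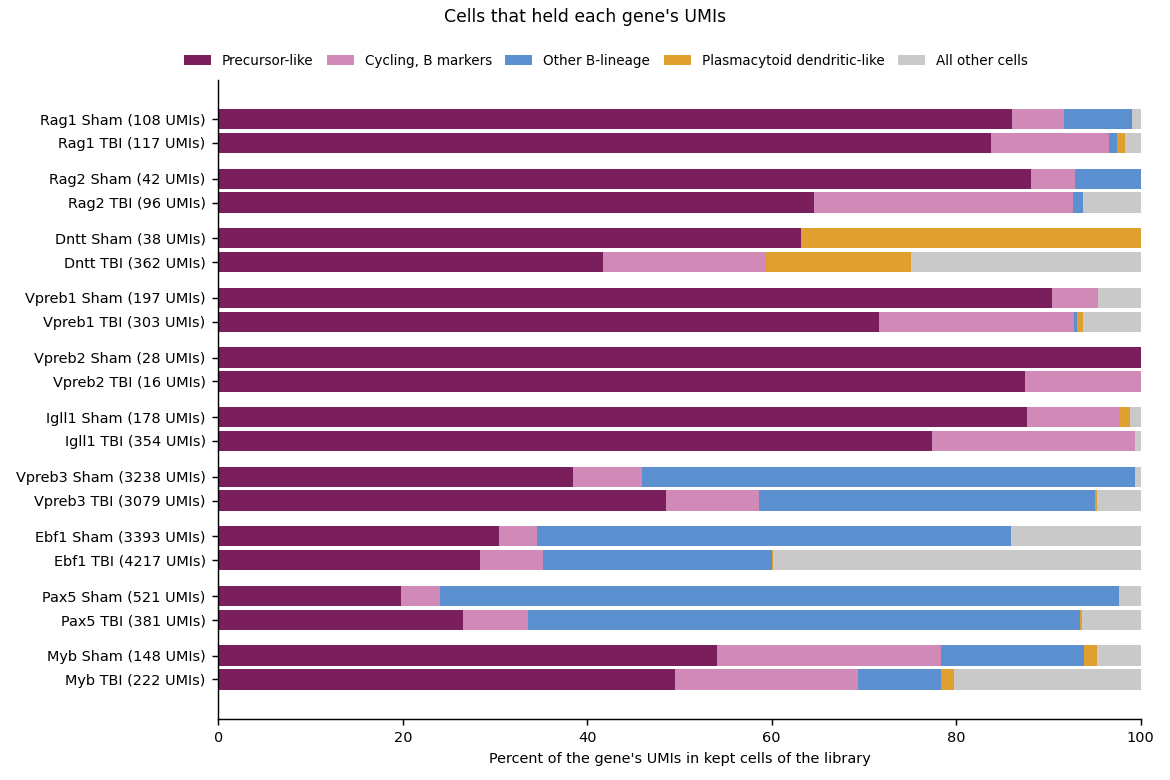
Percent of each member's UMIs in kept cells that lay in each class, for Sham and TBI. In the clustering used here Rag1, Rag2, Vpreb1, Vpreb2 and Igll1 had most of their UMIs in precursor-like cells (64.6% to 100%). Ebf1 had 30.4% and 28.3% there and a large part outside the B lineage.

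Vpreb3 and the lineage factors were spread across the B cell stages. Vpreb3 (ENSMUSG00000000903) was at 4606 CPM (4354 to 4870) in Sham and 4067 CPM (3864 to 4279) in TBI precursor-like cells, with a UMI in 78 of 87 and 115 of 121 cells. It was at 2320 and 1976 CPM in immature or naive-like cells, 1975 and 1822 in the cluster led by Sox5 and Tlr9, and 344 and 219 in mature-like cells. The order of these stages was the same in both libraries, and the pair in the middle lay close together. In all, 99.4% and 95.1% of Vpreb3 UMIs lay in B-lineage or cycling B cells, and 130 of the 172 UMIs outside were in cells marked as probable doublets.

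Ebf1 (ENSMUSG00000057098) was at 3815 CPM (3585 to 4055) and 3253 CPM (3072 to 3443) in precursor-like cells, 1605 and 1520 CPM in immature or naive-like cells, 1726 and 1421 in the cluster led by Sox5 and Tlr9, and 1297 and 973 in mature-like cells, where 92.6% and 89.7% of cells still had a UMI. Pax5 (ENSMUSG00000014030), which keeps B cells committed, differed less by stage: 381 CPM (311 to 462) and 275 CPM (224 to 334) in precursor-like cells, 280 and 249 in immature or naive-like cells, 500 and 414 in the cluster led by Sox5 and Tlr9, and 211 and 232 in mature-like cells. Its highest level was thus in that unnamed cluster in both libraries. Myb (ENSMUSG00000019982) was at 296 CPM (235 to 368) and 299 CPM (246 to 361) in precursor-like cells, reached 437 and 361 CPM in cycling cells with B markers, and had 1 UMI in the mature-like cells of each library. Its levels in the immature or naive-like cells were 40.1 and 35.1 CPM.

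Ebf1 was the member found most outside the B lineage. Pericyte-like cells had it at 1281 CPM in Sham and 1585 CPM in TBI, in 82.6% and 86.5% of cells, where mature-like B cells had 1297 and 973 CPM. Fibroblast-like cells had 444 and 368 CPM (75.0% and 57.3% of cells), and endothelial-like cells 326 and 314 CPM (39.3% and 43.0%). Macrophage-like cells, with a UMI in 3.98% and 2.58% of cells, give the share in a type without the gene. Over both libraries, the unnamed cluster led by Snhg11 and Foxp2 had Ebf1 at 633 CPM, in 52.9% of cells. The unnamed clusters led by Vwf and Tmem252 and by Sema3g and Gja5 had it in 44.5% and 43.8%. In all, 85.9% of Sham and 60.1% of TBI Ebf1 UMIs were in B-lineage or cycling B cells. The TBI library held 405 fibroblast-like cells against 48 in Sham, and 308 cells of the cluster led by Snhg11 and Foxp2 against 53. The Ebf1 level of a whole library is therefore not a measure of its B cells. Pax5, by contrast, was found in at most 0.568% of macrophage-like and 0.324% of endothelial-like cells.

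**Figure D3:**
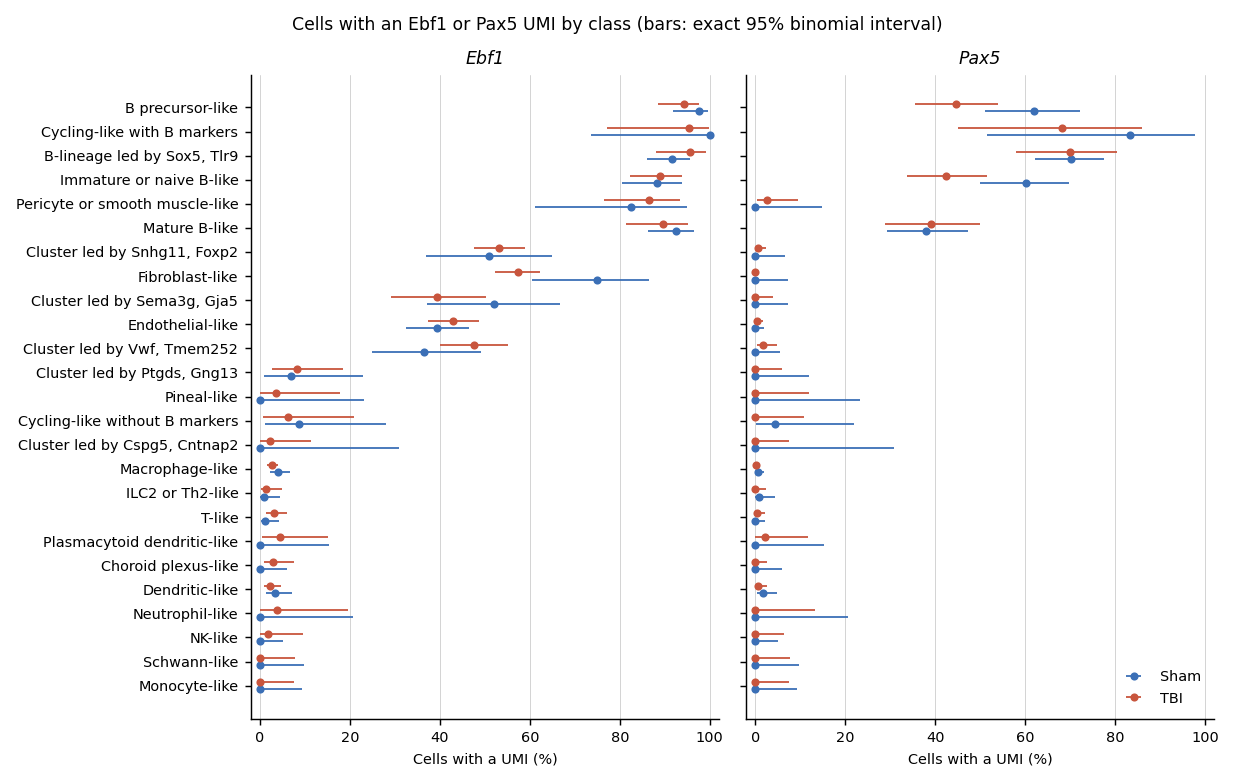
Percent of cells with an Ebf1 (left) or Pax5 (right) UMI in each class of both libraries, with exact binomial intervals. Pericyte-like cells had Ebf1 in 82.6% and 86.5% of cells, near the share of mature-like B cells (92.6% and 89.7%), and Pax5 in 0 Sham cells and with 3 UMIs in TBI.

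Set against mature-like cells of the same library, 9 of the 10 members were at least 2-fold higher in precursor-like cells in Sham, where 20.0% of 6589 tested genes were, and 9 of 10 in TBI, where 21.3% of 6670 were. This is a description of clusters, since other genes of the same cells drew them. Rag1, Rag2, Dntt, Vpreb1, Vpreb2 and Igll1 passed the limit of 10 UMIs only through precursor-like cells. So did Myb, with 1 UMI in the mature-like cells of each library. Their call as higher was fixed by that, so neither the members' count nor their median can be weighed against all tested genes. The same holds in the lists below for Lig4 in TBI, Il7r in Sham and Lef1, which had 2 UMIs in mature-like cells of each library. Other listed genes had fewer than 10 UMIs in mature-like cells and passed the limit only with those of precursor-like cells. Among them were Xrcc6, with 5 in each library, and Sox4, with 5 in Sham and 4 in TBI. The calls of such genes are given as values only. For members without a UMI in mature-like cells, the measured precursor-like level was set against an upper limit of 3 UMIs there. On that basis Rag1 was 42.4-fold higher in Sham and 20.3-fold in TBI, Rag2 16.9 and 12.8, and Dntt 10.9 and 31.3. Vpreb1 was 81.1-fold and 44.9-fold higher, Vpreb2 12.8 and 2.9, and Igll1 71.1 and 56.7. These folds leave out the counting error of the precursor-like level. The exact lower limits were smaller, at log2 5.08 and 4.02 for Rag1 and 3.28 and 1.04 for Vpreb2. Vpreb3 was 13.3-fold and 18.4-fold higher, and Ebf1 2.94-fold and 3.34-fold. Myb had a log2 ratio of 6.20 (4.25 to 12.09) and 5.52 (3.59 to 11.41) against its single UMIs. Pax5 was the exception, at log2 0.85 and 0.24. The members' median log2 ratio, with the zeros at their limit, was 3.91 and 4.27. For the reason above it is given as a value and not set against all tested genes.

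The precursor-like cells were themselves of more than 1 kind. When they and the cycling B cells were clustered again, a choice made after the data were seen, a sub-cluster led by Ifitm1, Arpp21 and Selenom held 23 cells, and with them 382 Igll1 UMIs (72.6% of those in the cells clustered), 373 of Vpreb1 (79.5%), 42 of Vpreb2 (95.5%) and 169 of Dntt (70.7%). It comprised 4 of the 87 Sham precursor-like cells (4.60%, 1.27 to 11.4) and 19 of the 121 TBI cells (15.7%, 9.73 to 23.4). The limits on cells bear on this contrast. Of the UMIs in all barcodes, kept cells held 83.8% of Vpreb1 and 83.2% of Igll1 in Sham, against 100% and 99.4% in TBI. The largest sub-cluster, 87 cells led by Rinl, Wdr44 and Zfp809, had no Igll1 or Dntt UMI and 2 of Vpreb1, but had Rag1 in 57.5% of cells at 403 CPM. Rag1 was not confined to either: it was found in 11 of the 23 cells (47.8%).

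Of the 23 cells, 16 had Igll1 UMIs, and 15 of those had Cd79a and all 16 had Ebf1. The other 7, all from TBI, had no Igll1: 4 had Cd79a and 2 had Ebf1, and they held 11 UMIs of Cd34 and 6 of Flt3. Of the 110 UMIs of macrophage markers in these 7 cells (1836 CPM), 109 lay in the richest 2, and the median cell had none of the 8 markers. The level was 97.5 CPM in the 16 and 26045 CPM in macrophage-like cells. The part of these cells in the results was not tested. Without the hemoglobin limit, 21 of the 23 cells left the precursor-like class and were called macrophage-like. The markers behind that name are not given for this setting. With finer clusters 21 of the 23 cells also left, for a small cluster that the marker rule called macrophage-like. That name rested on C1qa, C1qb and C1qc, 3 of 8 markers, although the leading genes of the cluster were Vpreb1, Dntt, Igll1, Ifitm1 and Vpreb2. The share of each member's UMIs within the precursor-like class therefore depended on the clustering, for Vpreb3, Ebf1, Pax5 and Myb as well as for the genes that led this cluster. In the clustering used here, 97.8% and 99.4% of Igll1 UMIs and 95.4% and 93.1% of Vpreb1 UMIs lay in the B stages and cycling B cells as a whole. These values are for that clustering only.

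Counts per cell showed how the genes were combined. Among the 208 precursor-like cells of both libraries, 19 of the 20 cells with Igll1 also had Vpreb1, which 22 cells had, all 9 cells with Vpreb2 were among those 22, and 14 of the 15 cells with Dntt had Igll1. Rag1 and Rag2 were found together in 46 cells, where the product of their shares gives 33.2. A UMI of an immunoglobulin light chain constant region was present in 5 of the 20 cells with Igll1 (25.0%) and 2 of the 15 with Dntt (13.3%), against 87.8% of cells without Igll1 and 87.0% without Dntt. For Rag1 the light chain was present in 89 of 103 cells (86.4%), against 77.1% of cells without it. At 3 or more light chain UMIs the counts were 1 of 20 cells with Igll1, against 71.8% without it. The background was low: light chain UMIs were found in 1.02% and 3.88% of endothelial-like and 1.14% and 2.84% of macrophage-like cells of Sham and TBI, and 3 or more in at most 0.568%. Cells with Igll1 had a median of 2982 UMIs and those without 2728.

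**Figure D4:**
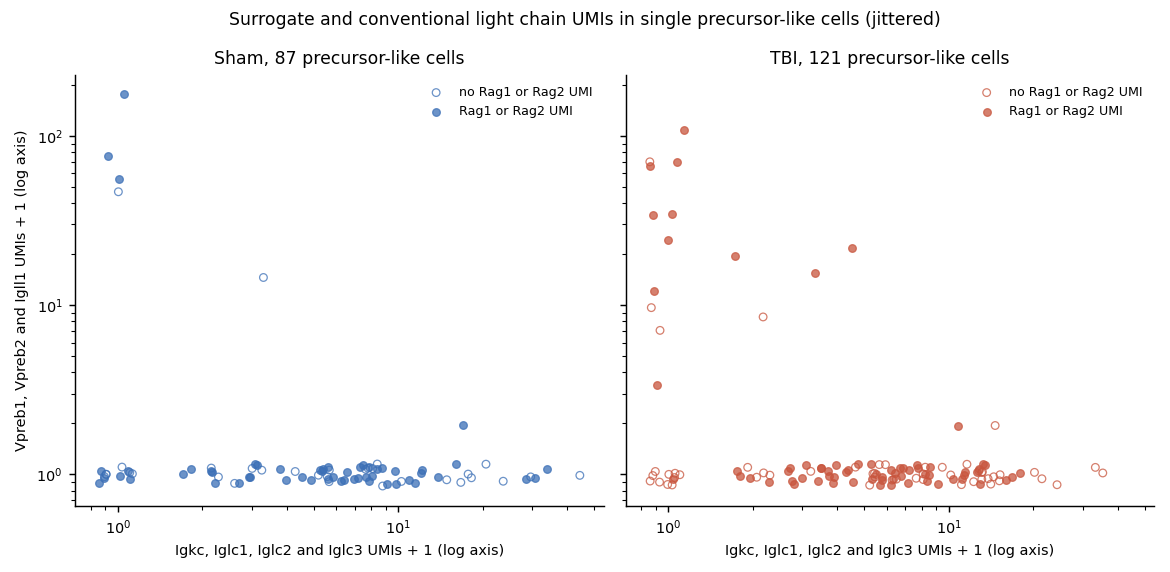
Summed Vpreb1, Vpreb2 and Igll1 UMIs against summed light chain constant region UMIs, each plus 1 on log axes with jitter, in single precursor-like cells of Sham (left) and TBI (right), filled where the cell had a Rag1 or Rag2 UMI. Cells with many surrogate light chain UMIs lie at the left, and over both libraries 5 of 20 cells with Igll1 had a light chain UMI against 87.8% of those without.

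By library, 6 of 87 Sham (6.90%) and 17 of 121 TBI (14.0%) precursor-like cells had a surrogate light chain UMI, while 55 (63.2%) and 69 (57.0%) had Rag1 or Rag2. Both kinds of transcript were found in 4 and 12 cells, and neither in 30 (34.5%) and 47 (38.8%). A light chain constant region was found in 81.6% and 81.8%. The intervals of the surrogate light chain share rest on few cells and overlap, at 2.57 to 14.4 in Sham and 8.4 to 21.5 in TBI. The limits on cells also took out a larger part of the Vpreb1 and Igll1 UMIs in Sham than in TBI.

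Between libraries, 2 of the 10 members were past 2-fold in precursor-like cells, 1 in each direction, where 12.1% of 6848 tested genes were. Dntt was 4.55-fold higher in TBI, a log2 ratio of 2.19 (1.58 to 2.90), and Vpreb2 was lower, at -1.42 (-2.48 to -0.47). The size of the first depends on 1 cell: without the TBI cell of 81 UMIs the log2 ratio was 1.14 (0.47 to 1.89). It was then still past 2-fold, with an interval that reached below 2-fold, and with probable doublets removed it was 1.25. With the members used in the clustering 0 of them were past 2-fold, and without the hemoglobin limit 1 was, since cells with the surrogate light chain then left the class. Igll1 was at 0.37 (0.08 to 0.66), and at 0.84 without the richest cell of each library. Vpreb1 was at -0.16 (-0.45 to 0.14), and at 0.22 without those cells, so its direction turned on single cells.

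The remaining members lay closer to equality. Rag1 was at -0.37 (-0.79 to 0.06), Rag2 at 0.29 (-0.31 to 0.93) and Myb at 0.01 (-0.41 to 0.45), each with 0 inside its counting interval. Vpreb3 was at -0.18 (-0.29 to -0.07), Ebf1 at -0.23 (-0.35 to -0.11) and Pax5 at -0.47 (-0.88 to -0.06), slightly lower in TBI with intervals that leave out 0 but do not cover the spread between mice. The members' median was -0.17, beside -0.01 over all tested genes.

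In the other B-lineage cells 4 members had at least 10 UMIs and 0 of them were past 2-fold, where 7.64% of 8970 tested genes were. Vpreb3 was at 1539 CPM in Sham and 1424 in TBI, Ebf1 at 1550 and 1334, Pax5 at 342 and 290, and Myb at 20.5 and 25.4. Their log2 ratios were -0.11, -0.22, -0.24 and 0.32.

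**Figure D5:**
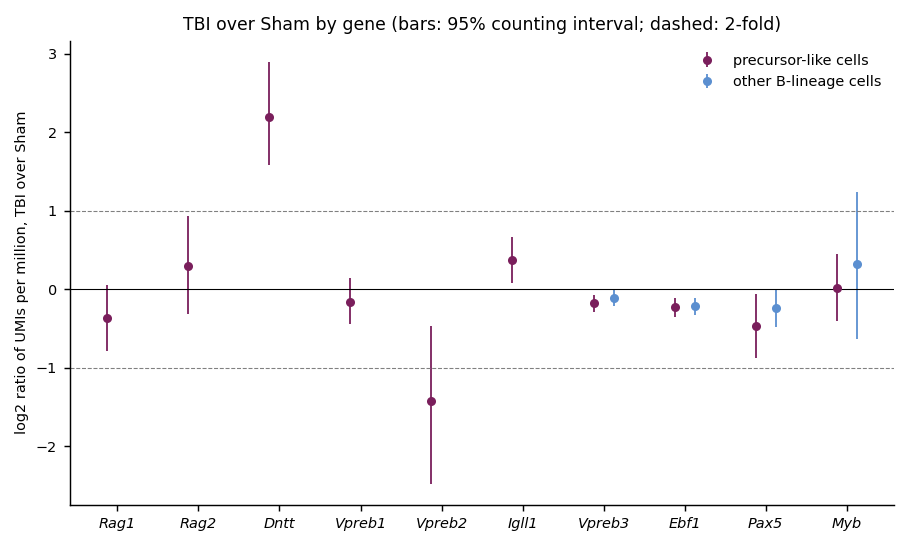
Log2 ratio of TBI over Sham for each member in precursor-like and in other B-lineage cells, with intervals that cover counting error, and dashed lines at 2-fold. Dntt (2.19) and Vpreb2 (-1.42) lay past the lines in precursor-like cells and 0 of 4 members did in the other B-lineage cells.

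Other genes of the pathway were taken from 3 lists. Of 14 end-joining genes and RAG partners, 10 could be tested in Sham and 11 in TBI, and 6 and 5 were 2-fold higher in precursor-like than in mature-like cells, with none lower and medians of 1.35 and 0.89, beside 20.0% and 21.3% of all tested genes higher and medians of 0.33 and 0.28. Xrcc6, encoding the Ku70 end-binding protein, is itself a marker used to name the class. It was at 603 against 13.5 CPM in Sham and 528 against 21.9 in TBI. The counts and medians of this list include Xrcc6, so they are not independent of the naming and are given as values only. Polm, a polymerase of end joining, had log2 ratios of 2.11 and 3.18. Lig4, the ligase that seals the break, was at 70.3 against 10.8 CPM in Sham. In TBI it was at 84.4 CPM with no UMI in mature-like cells. Against the limit of 3 UMIs that was 6.42-fold higher, with an exact lower limit of log2 2.3. Dclre1c, encoding the hairpin-opening nuclease Artemis, was at log2 0.76 in Sham and 1.35 in TBI, and Hmgb2, a DNA-bending partner of the RAG proteins, was at 1.49 in Sham and 0.85 in TBI.

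Of 15 genes of pre-B receptor and IL-7 signalling, 2 were 2-fold higher and 1 lower in each library, with medians of 0.11 and 0.22. Beside them, 20.0% and 21.3% of all tested genes were higher, and so small a count cannot be set apart from that share. Il7r, the IL-7 receptor chain and also a naming marker, was at 429 CPM in Sham precursor-like cells with no UMI in mature-like cells, at least 52.8-fold higher, and at 327 against 21.9 CPM in TBI. Blnk, the adaptor below the receptor, was at 1.16 and 1.01. Il2rg, the chain shared by several cytokine receptors, was lower, at -1.78 and -1.71. Cd79a, the signalling chain of the receptor at every stage, was at -0.02 and -0.18.

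Among 16 transcription factors of early B cells, 15 could be tested in each library, and 9 in Sham and 8 in TBI were 2-fold higher with none lower, beside the same 20.0% and 21.3%, and with medians of 1.44 and 1.19. Sox4 (4.86 and 4.33) and Lef1 (4.43 and 3.62) led the list and are naming markers. The counts and medians include both, so they are not independent of the naming and are given as values only. Irf4, which promotes light chain recombination, was at 2.65 and 2.48, Bach2 at 2.34 and 1.87, and Tcf3, which encodes E-proteins, at 2.31 and 2.05. Between libraries, in precursor-like cells, 1 of 11 end-joining genes, 0 of 15 signalling genes and 1 of 16 factors were past 2-fold, beside 12.1% of all tested genes. Counts this small cannot be set apart from that share. The genes past 2-fold are given as values. Prkdc, the DNA-dependent kinase of end joining, had 3 UMIs in Sham and 15 in TBI (log2 1.70, 0.06 to 4.31), and Foxo1, a factor that promotes Rag gene expression, was at 296 and 147 CPM (log2 -1.01, -1.54 to -0.49). In the other B-lineage cells 0 of 13, 0 of 15 and 0 of 15 tested genes of these lists were past 2-fold, beside 7.64% of all tested genes.

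Across 46 sums of 25 classes in the 2 libraries, the genes whose levels ran most like those of a member were found by Pearson correlation of log2(CPM + 10), a description over points that share libraries, depth and clustering. For Rag1 they were Gm34095 (0.98), Slc12a3 (0.98), Vpreb1 (0.96) and Igll1 (0.96), and for Igll1 they were Vpreb1, Slc12a3 and Rag2 (0.97 each) and Rag1 (0.96). Vpreb3 ran with Pou2af1 (0.98), Pax5 (0.97), Gm30211 (0.97) and Fam129c (0.96), which are spread over the B stages. Myb ran with Gm37065 (0.93), Gm34095 (0.92), Rag1 (0.88) and Rag2 (0.88). The best matches of Dntt were Psrc1 (0.84), Cox6a2 (0.81), Spns3 (0.77) and Myb (0.76). Those of Ebf1 were Gga2 (0.79), Dennd5b (0.78), Fam43a (0.78) and Ttpal (0.77). The values for Dntt and Ebf1 were lower than those of the other members correlated here. Both were also found outside the B stages. So was Myb, with 93.9% of its Sham and 78.4% of its TBI UMIs in B-lineage or cycling B cells. Slc12a3 and Spns3 are on the list of precursor markers, and Cox6a2 is on that of plasmacytoid dendritic cells.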

How the data were processed

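The authors deposited 1 matrix of UMI counts per library, made with Cell Ranger against mm10. Per the labels' processing notes its version was 2.1.1, while the matrix header names 3.1.0. No other normalization had been applied. Here cells with 150 to 5000 genes, at most 20% mitochondrial and at most 5% hemoglobin UMIs were kept, as in the study's methods. In Sham 289 cells passed the other limits but not the last, and in TBI 174 did. Of the UMIs in all barcodes, the cells kept under all limits together held 83.8% of Vpreb1 and 83.2% of Igll1 in Sham. In TBI they held 100% and 99.4%. These shares do not show which limit removed the rest. Both libraries were clustered together with scanpy 1.11.5 (Python 3.11.15, igraph 0.11.9) on counts per 10000, 2000 variable genes without the members and without antigen receptor variable genes, 20 principal components, 20 neighbours and resolution 0.8, and B-lineage cells were clustered again. A cluster was named where at least 3 markers of a list were among its 50 genes of highest fold. UMIs were summed per class and library, with 0.5 added for log2 ratios. A gene counted as tested with at least 10 UMIs over both sums. Intervals were exact (scipy 1.17.1), and ratios were tested on simulated data with independent Poisson counts. Those counts do not gather in a few cells as the Dntt and Vpreb2 UMIs did, so that test does not cover such genes. With 0 UMIs the upper limit was 3 counts. Scrublet's automatic threshold marked under 0.5% of cells, so the 33 Sham and 114 TBI cells with the highest scores were marked as probable doublets, a choice made after the data were seen, and they were left in the values. Named were all members, the genes of each pathway list past 2-fold (up to 4 a list and comparison, largest first; Cd79a and the value of each such gene in the other library were added after the values were seen) and the 4 genes most like 6 of the members. The members and lists were chosen with earlier results of these data known.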

Additional observations from a re-analysis of the deposited data

How the results depend on the processing

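No paired analysis was possible because each group is 1 library, and no library could be left out. The precursor-like share of B-lineage cells (19.1% in Sham, 29.9% in TBI) was 15.6% and 21.0% with resolution 1.6. Staging cells by their own precursor markers took 291 and 279 cells, 61.9% and 60.0% of another base, the 470 and 465 cells with B cell markers. In TBI the share of B-lineage cells was also 22.1% with members among the variable genes and 20.7% without the hemoglobin limit. The median over members of the share of UMIs in precursor-like cells (74.6% and 57.1%) was 19.0% and 18.1% with resolution 1.6, 18.5% and 19.3% with members among the variable genes and 19.6% and 18.4% without the hemoglobin limit, since the cells with surrogate light chain UMIs then lay in another cluster, and 88.5% in TBI by markers per cell. The median share of precursor-like cells with a UMI (42.0% and 38.4%) was 14.9% and 22.0% by markers per cell, 15.8% and 19.1% after thinning and 14.9% and 16.5% where 2 UMIs were asked of a cell. The number of members past 2-fold between libraries (2) was 0 with members among the variable genes and 1 without the hemoglobin limit. Resolution 0.4 and 0.1 added to each sum moved none of these summaries, nor did removing shared barcodes or the precursor-like cell richest in Dntt, the last pair added after the data were seen.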
